A study of Sesamum indicum with 195 samples.

Results

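Drainage of waterlogged sesame roots was followed here in the waterlogging-tolerant genotype ZZM2541 (R2G). The 18 samples are the 9 R2G recovery samples taken at 40, 44 and 48 h and the 9 R2G control samples of the same times, chosen by genotype, treatment and time from the 195 root samples of the series. Sesame (Sesamum indicum) plants in pots were waterlogged for 36 h after flowering had begun and were then drained, so that these recovery samples were taken 4, 8 and 12 h after drainage started. Control plants received normal watering throughout. Each group of 1 genotype, treatment and time held 3 samples, and each of the 3 was a single plant from another pot of a randomized block design. Whether plants of different times shared a pot is not stated. R2G waterlogging and control samples at 32 h, and recovery and control samples of the susceptible genotype Ezhi No. 2 (EG), were used for comparison only. In EG at 48 h the surviving plants were used.

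Roots under water lose most of their oxygen supply, and plant cells then turn from respiration to glycolysis and fermentation and shut down much of their costly synthesis. Drainage brings air back. The return of oxygen is known for a burst of reactive oxygen species, which catalase, superoxide dismutase and peroxidases remove, and for the resumption of growth in roots that survived.

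Gene expression was given as TPM, the share of a library's transcripts that a gene takes after correction for its length. This unit does not hold the number of reads behind a value. The study's methods give a range of clean reads over all its libraries, but the depth of single libraries was not used here and no counting interval was computed. The recovery libraries held 16943 to 18056 genes at 1 TPM or more, against 18160 to 18726 in the control libraries. The 10 most abundant genes took 3.22% to 5.69% of the TPM in recovery and 3.58% to 4.37% in control. Within a group, libraries correlated at 0.964 to 0.984 in recovery and 0.970 to 0.983 in control, across genes on log2(TPM + 1). The first recovery library at 40 h was the least like the controls, at a correlation of 0.872. The samples are whole roots, so fewer cells of a type and less RNA per cell cannot be told apart. The root label was not checked against marker genes, because the gene names used here include none.

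After drainage, far more R2G genes were called lower than control than were called higher, and with all samples fewer were called at each later time. A gene was called when its Benjamini-Hochberg adjusted p from limma, over all 18178 genes tested, was under 0.05 and its log2 fold change of TPM + 1 was at least 1 in size. Averaged over the 3 times, 1887 genes were called, which is 10.4% of those tested. Of these, 294 (1.62%) were higher and 1593 (8.76%) were lower in recovery. At 40 h, 3154 genes (17.4%) were called, 467 higher (2.57%) and 2687 lower (14.8%). At 44 h the calls numbered 2116 (11.6%), 455 higher (2.5%) and 1661 lower (9.14%). At 48 h, 12 h after drainage, 1315 genes (7.23%) were called, 297 higher (1.63%) and 1018 lower (5.6%), and without the second replicate of every group 774 were called at 48 h. Without the first replicate the order of the later times turned, with 1595 genes called at 44 h and 1771 at 48 h. Over all genes tested the median log2 fold change was -0.11 at 40 h, 0.01 at 44 h and 0.06 at 48 h, and scaling of the samples by median ratios brought the 40 h value to -0.01. The typical standard error was 0.13 for the average and 0.22 for a single time.

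**Figure D1:**
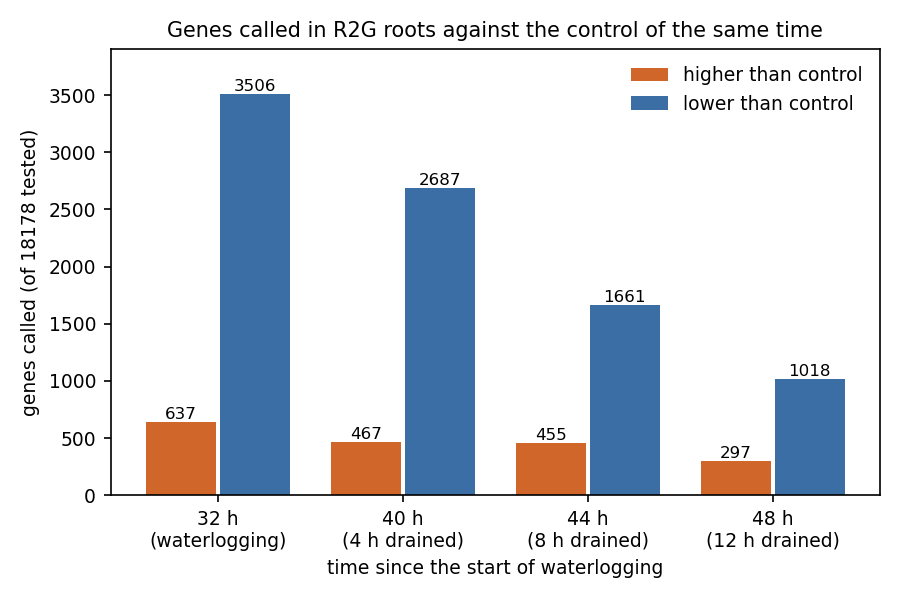
Genes called in R2G roots against the control of the same time. The x axis gives the time since the start of waterlogging, with 32 h still under water, and the y axis the number of genes of 18178 tested; orange bars are higher and blue bars lower than control. Lower genes outnumber higher ones at every time, and they fall in number to 1018 at 48 h, against 3506 at 32 h.

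The falls were also deeper than the rises. Among genes called on average, 375 were lower by 2 or more on the log2 scale, 108 by 3 or more and 38 by 4 or more. For higher genes the same limits gave 34, 3 and 0. In 802 genes (4.41%) all 9 recovery samples lay above all 9 control samples, and in 880 (4.84%) all 9 lay below, whatever the size of the difference.

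Most lower genes were called for a part of the recovery only. Of the genes tested, 1287 were called lower at 40 h alone, 533 at 40 and 44 h, 711 at all 3 times, 346 at 44 h alone and 88 at 48 h alone. Called higher at 44 h alone were 272, at 48 h alone 113 and at all 3 times 76. Of the 1018 genes lower at 48 h, 863 had been lower at 40 h, which is 84.8% of the 48 h list and 32.1% of the 40 h list. Of the 297 genes higher at 48 h, 154 had been higher at 40 h, 51.9% of the later list and 33% of the earlier one. A call in opposite directions at 40 and 48 h was made for 1 gene.

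The genes called at all 3 times can be followed in treated samples that did not choose them. R2G recovery was also sampled at 38, 42 and 46 h, without a control of the same time. The 711 lower genes had a median of 1.12, 1.53 and 2.47 on the log2(TPM + 1) scale at 38, 42 and 46 h. At the 3 times that chose them the medians were 1.19, 1.77 and 2.12 in recovery, against 3.98, 4.12 and 3.92 in control. Of the 711, 710 lay under their mean in the controls of 40 to 48 h at 38 h, 710 at 42 h and 677 at 46 h. The controls in these counts are those that chose the genes, so the counts are not an independent test. They were already low under water, with a median of 0.85 at 32 h of waterlogging against 3.11 in its control, and 0.75 at 36 h. The 32 h control was itself under the later controls for 609 of the 711 genes. The 76 higher genes had medians of 5.53, 5.01 and 4.59 at 38, 42 and 46 h, and 72, 68 and 57 of them lay above their mean in the later controls. At 32 h their median was 5.89 under waterlogging and 4.29 in control, and it was 5.94 at 36 h of waterlogging.

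**Figure D2:**
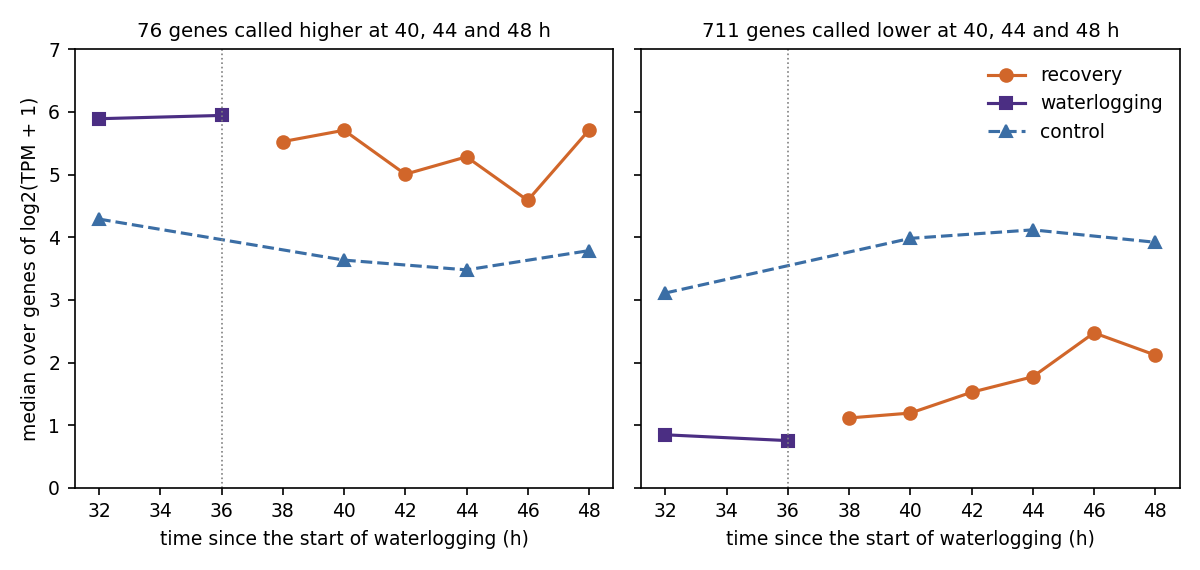
Median level of the genes called at 40, 44 and 48 h, by time since the start of waterlogging. The y axis is the median over genes of the group mean of log2(TPM + 1), on the left for the 76 higher genes and on the right for the 711 lower genes; circles are recovery, squares waterlogging and triangles control, and the dotted line marks drainage at 36 h. In the lower genes recovery runs up to 2.47 at 46 h and stays under every control shown.

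Of genes called at all 3 times, the 6 largest rises and 6 largest falls with a mean of at least 10 TPM in recovery or control are described next. The annotation gives these genes a locus number and no descriptive name, so no role is stated for them. All positions are on the linkage groups of sesame genome v1.0.

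LOC105158228 (linkage group 3, 13162665 to 13164277) rose most. Its recovery levels were 284, 128 and 75.5 TPM at 40 h, 205, 109 and 115 TPM at 44 h, and 99.1, 146 and 267 TPM at 48 h. In control it had 13.6, 8.15 and 7.60 TPM at 40 h, 12.4, 25.3 and 25.0 TPM at 44 h, and 32.1, 10.0 and 5.57 TPM at 48 h. Every recovery sample lay above every control sample. The means were 159 ± 75.5 TPM in recovery and 15.5 ± 9.48 TPM in control (SD, n = 9 each), a 10.2-fold difference and a log2 fold change of 3.35 ± 0.25 (SE, limma adjusted p = 1.1e-24). LOC105157366 (linkage group 3, 6070653 to 6071605) was the most abundant of the 6, at 880.4 ± 480.0 TPM in recovery and 94.7 ± 51.5 TPM in control (SD, n = 9 each). Its recovery levels were 1863, 782 and 697 TPM at 40 h, 952, 1153 and 643 TPM at 44 h, and 144, 568 and 1121 TPM at 48 h, and the control levels ran from 39.9 to 202 TPM. The lowest 48 h recovery sample therefore overlapped the controls. The log2 fold change was 3.14 ± 0.29 (SE, limma adjusted p = 7.3e-18). LOC105157366 had stood at 2776, 1301 and 2201 TPM at 36 h of waterlogging.

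LOC105173346 (linkage group 11, 4389622 to 4397829) ran from 91.2 to 319 TPM in recovery, with a median of 139.9, and from 5.75 to 64.7 TPM in control, with a median of 13.9. The groups did not overlap, and the log2 fold change was 3.19 ± 0.38 (SE, limma adjusted p = 1.7e-12). Between the times of the comparison its level was much lower. LOC105173346 read 20.0, 17.4 and 47.4 TPM at 42 h of the time course and 7.96, 6.73 and 18.5 TPM at 46 h, within the range of the controls at 40 to 48 h. LOC105177354 (linkage group 15, 1054570 to 1055624) moved alike. It ran from 14.4 to 86.6 TPM in recovery at 40 to 48 h and from 0.703 to 13.0 TPM in control, with no overlap, and read only 2.89, 2.03 and 3.93 TPM at 46 h. Its log2 fold change was 2.84 ± 0.39 (SE, limma adjusted p = 2.5e-10). As 42 and 46 h have no control, whether the controls would also have been low then was not tested.

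LOC105165762 (linkage group 1, 1226362 to 1229803) and LOC105178753 (linkage group 16, 4682339 to 4686532) rose with a wide spread between plants. LOC105165762 had 71.7, 25.5 and 2.95 TPM at 40 h of recovery, 15.6, 29.6 and 4.57 TPM at 44 h and 1.76, 21.4 and 21.6 TPM at 48 h. Its 9 control samples ran from 0.278 to 3.41 TPM, so that 2 recovery samples lay within the control range. The log2 fold change was 2.97 ± 0.43 (SE, limma adjusted p = 3.2e-09). LOC105178753 ran from 8.57 to 286 TPM in recovery and from 1.88 to 19.5 TPM in control, and its log2 fold change was 2.92 ± 0.49 (SE, limma adjusted p = 1.5e-07). Of the 6 genes, 5 had also been called higher than control at 32 h of waterlogging, against 3.5% of all genes tested. The largest log2 fold change of the 6 at 32 h was 5.24, for LOC105165762. LOC105173346, at 1.41, was not called then.

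The 6 largest falls were in genes with a mean of over 100 TPM in control, and none of the 6 overlapped between groups. Over all genes tested, 4.84% lay below control without overlap. The 6 were chosen for their falls in these same samples, so their lack of overlap is a description. LOC105164245 (linkage group 6, 9025481 to 9028935) had 1.21, 4.00 and 2.33 TPM at 40 h of recovery, 3.78, 2.91 and 2.75 TPM at 44 h and 31.0, 68.8 and 4.33 TPM at 48 h. Its control levels were 331, 336 and 312 TPM at 40 h, 1366, 434 and 270.0 TPM at 44 h, and 502, 334 and 392 TPM at 48 h. The means of 13.5 ± 22.8 TPM in recovery and 475 ± 341 TPM in control (SD, n = 9 each) differed 35.3-fold, with a log2 fold change of -5.94 ± 0.35 (SE, limma adjusted p = 2.8e-32). The rise at 48 h was seen in 2 of the 3 plants. Its neighbour LOC105164159 (linkage group 6, 9031446 to 9034872) moved with it, at 19.1, 43.1 and 1.94 TPM at 48 h of recovery against 269, 180 and 212 TPM in control. Its log2 fold change was -5.70 ± 0.35 (SE, limma adjusted p = 2.7e-31).

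LOC105162167 (linkage group 5, 5163988 to 5173680) was listed at 0 in all 3 samples at 36 h of waterlogging. In recovery it had 0.361, 0.537 and 0.288 TPM at 40 h, 0.308, 1.90 and 0.714 TPM at 44 h and 11.3, 3.54 and 1.02 TPM at 48 h. The 9 control samples ran from 39.1 to 213 TPM, with a median of 128. Its log2 fold change was -5.59 ± 0.33 (SE, limma adjusted p = 9.4e-33). LOC105160996 (linkage group 4, 13765000 to 13765822) averaged 2.54 ± 2.48 TPM in recovery and 144 ± 41.5 TPM in control (SD, n = 9 each). LOC105171034 (linkage group 9, 7567324 to 7568150) averaged 8.78 ± 8.55 TPM in recovery and 348 ± 74.9 TPM in control, and LOC105164264 (linkage group 6, 9282007 to 9283139) averaged 3.46 ± 5.75 TPM in recovery and 131 ± 45.1 TPM in control. Their log2 fold changes were -5.55 ± 0.30, -5.54 ± 0.36 and -5.44 ± 0.29 (SE). For all 6 genes the fall at 48 h was the smallest of the 3 times. The change from 40 to 48 h was 2.47 for LOC105164245 and 0.09 for LOC105160996, and it was called for neither.

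**Figure D3:**
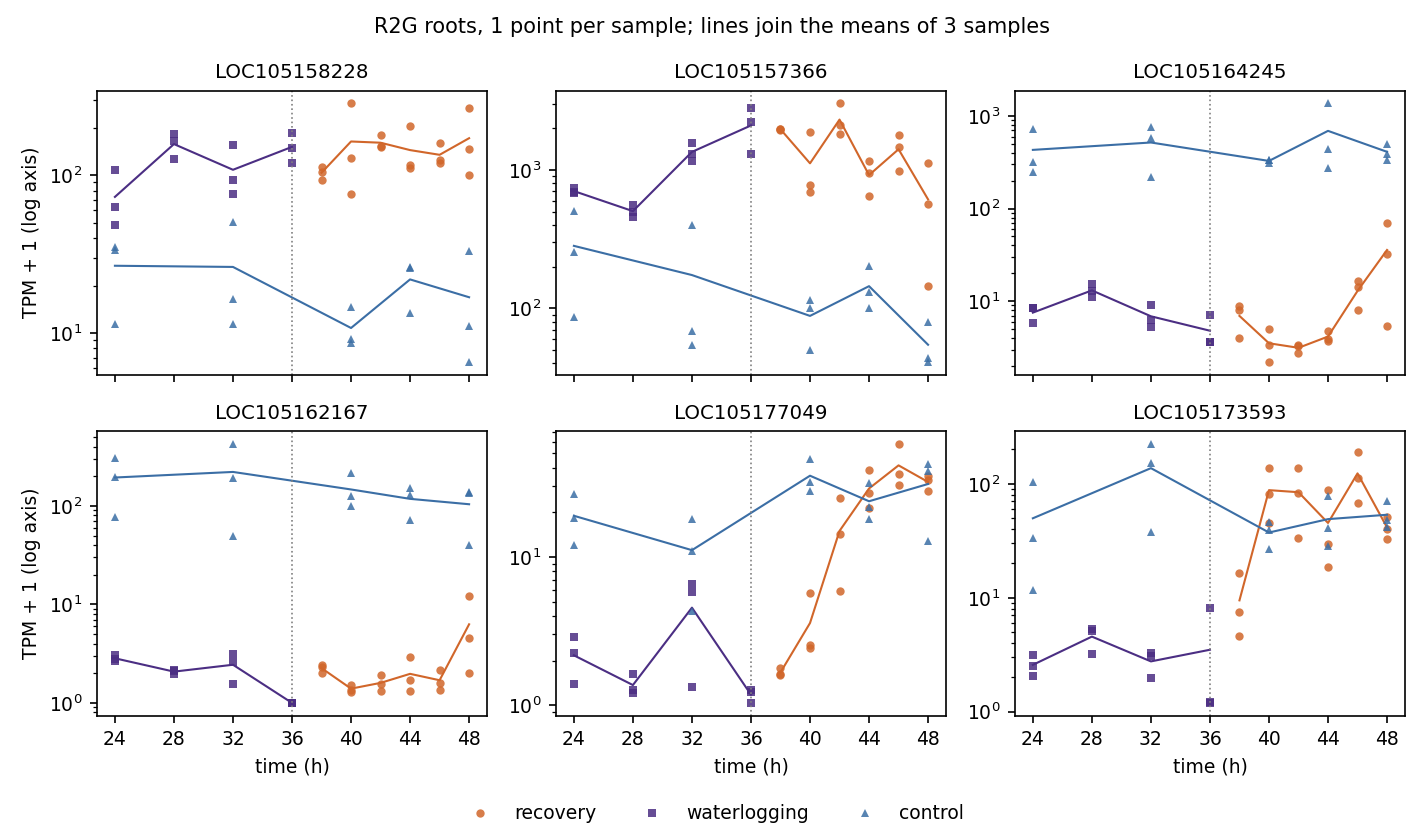
Single genes in R2G roots by time since the start of waterlogging, with 1 point per sample on a log axis of TPM + 1 and lines through the group means. Circles are recovery, squares waterlogging and triangles control, and the dotted line marks drainage at 36 h. LOC105158228 and LOC105157366 stay above control, LOC105164245 and LOC105162167 stay far below it, and LOC105177049 and LOC105173593 reach the control range.

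The change of the recovery effect between 40 and 48 h was itself tested. It was called for 793 genes (4.36%), and for 747 of them (4.11%) the effect at 48 h was the higher one. Of these 747, 606 had been called lower at 40 h, and 84 were still lower and 20 higher at 48 h. The other direction held 46 genes (0.253%), of which 24 had been called higher at 40 h and 11 were lower at 48 h. These counts rest on few plants. Leaving out the first replicate of every group left 6 calls by limma, while 1617 genes had an unadjusted p under 0.05. Without the second or the third replicate the calls numbered 262 and 1302. Among single libraries, the count was 458 and 500 without the first or second recovery library at 40 h, 258 without the first recovery library at 48 h, 420 and 499 without the first or second control library at 40 h, and 239 without the first control library at 48 h. Median-ratio scaling took the median change over all genes to -0.00, against 0.18 as deposited, and left 477 calls, 404 higher and 73 lower.

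LOC105177049 (linkage group 14, 2489288 to 2491131) had the largest upward change, 3.61 ± 0.68 on the log2 scale (SE, limma adjusted p = 0.00035). It had 1.57, 1.43 and 4.75 TPM at 40 h of recovery, 26.1, 37.5 and 20.4 TPM at 44 h and 34.3, 26.8 and 32.2 TPM at 48 h. The control had 44.8, 27.0 and 31.2 TPM at 40 h, 30.4, 17.0 and 20.9 TPM at 44 h, and 11.8, 37.0 and 41.5 TPM at 48 h. The groups were apart at 40 h and overlapped at 44 and 48 h. LOC105168818 (linkage group 1, 15322946 to 15323712) had 0.844, 0.358 and 0.576 TPM at 40 h, 9.19, 19.4 and 8.78 TPM at 44 h and 19.0, 8.86 and 5.17 TPM at 48 h of recovery. Its 9 control samples lay between 12.9 and 33.9 TPM, and the change was 3.38 ± 0.62 (SE, limma adjusted p = 0.00028). Both calls were lost without the first replicate.

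LOC105177883 (linkage group 15, 4763064 to 4764876) moved towards control and stayed below it. It had 0.783, 1.31 and 10.2 TPM at 40 h of recovery, 14.2, 56.4 and 7.78 TPM at 44 h and 42.8, 23.1 and 10.1 TPM at 48 h, against 60.2 to 479 TPM in the 9 control samples. The log2 fold change was -6.22 at 40 h, -3.13 at 44 h and -2.81 at 48 h, and the change of 3.40 ± 0.73 (SE, limma adjusted p = 0.0015) was lost without the first or the second replicate and in a model of the compared samples alone.

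Among genes that moved down between 40 and 48 h, the 3 with the largest change were near or above control at 40 h and below it later. LOC105179681, which is on no linkage group, had 6.57, 14.3 and 32.5 TPM at 40 h of recovery, 1.29, 3.76 and 5.78 TPM at 44 h and 2.73, 2.60 and 1.70 TPM at 48 h. Its control levels were 19.6, 12.8 and 21.1 TPM at 40 h, 56.0, 27.2 and 29.5 TPM at 44 h, and 47.8, 36.0 and 32.1 TPM at 48 h. The groups overlapped at 40 h alone, and the change was -3.33 ± 0.73 (SE, limma adjusted p = 0.0022). LOC105161045 (linkage group 4, 14488351 to 14495146) had 27.9, 45.8 and 54.6 TPM at 40 h of recovery, above its 26.4, 14.9 and 22.4 TPM in control. At 48 h it had 7.28, 13.8 and 5.44 TPM in recovery and 47.1, 41.9 and 35.0 TPM in control, and the change was -3.15 ± 0.69 (SE, limma adjusted p = 0.002). LOC105171663 (linkage group 10, 2148325 to 2153150) had 45.9, 88.2 and 182 TPM at 40 h of recovery and 60.0, 37.5 and 50.6 TPM in control. At 48 h it had 24.9, 23.3 and 10.5 TPM in recovery and 114, 75.9 and 75.5 TPM in control, a change of -3.07 ± 0.87 (SE, limma adjusted p = 0.021). The first 2 of these calls were lost without the first replicate, and that of LOC105171663 was lost in 8 alternatives.

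The annotation gives a descriptive short name to 17 genes, of which 14 could be tested, and 4 of the 14 were called on average, 1 higher and 3 lower. Of all genes tested, 10.4% were called on average, 1.62% higher and 8.76% lower. The higher one of the 4 was named peroxidase (LOC105177799), an enzyme that reduces hydrogen peroxide. It had 258, 146 and 126 TPM at 40 h of recovery, 154, 138 and 130 TPM at 44 h and 156, 170 and 165 TPM at 48 h. Its control levels were 50.6, 60.6 and 58.2 TPM at 40 h, 51.4, 141 and 84.3 TPM at 44 h, and 80.7, 51.8 and 78.0 TPM at 48 h. The groups were apart at 40 and 48 h and overlapped at 44 h, and the log2 fold change was 1.17 ± 0.17 (SE, limma adjusted p = 1.5e-09). Without the first replicate it was 0.95, just under the limit of 1. Peroxidase had already been called higher at 32 h of waterlogging, at 1.26 (limma adjusted p = 0.00014). Its average recovery effect minus that effect was -0.09 and was not called. The single loci named for catalase and superoxide dismutase gave small differences, and other genes for these enzymes were not examined. CAT, catalase (LOC105178686), averaged 78.0 ± 11.7 TPM in recovery and 75.3 ± 15.1 TPM in control (SD, n = 9 each), a log2 fold change of 0.06 ± 0.11 (SE). SOD, superoxide dismutase (LOC105166989), averaged 44.6 ± 8.61 TPM in recovery and 42.7 ± 3.74 TPM in control, a log2 fold change of 0.04 ± 0.09 (SE). At 32 h of waterlogging SOD had been at 17.7, 30.0 and 28.0 TPM, against 53.0, 39.9 and 48.5 TPM in control, a log2 fold change of -0.90 (limma adjusted p = 6e-07).

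Of the named genes of lipid metabolism, FAD2 (LOC105163532), which desaturates oleate, was the most changed. It had 0.964, 0.716 and 1.94 TPM at 40 h of recovery, 1.11, 3.44 and 2.86 TPM at 44 h and 7.60, 5.40 and 0.612 TPM at 48 h. In control FAD2 had 20.7, 15.9 and 12.8 TPM at 40 h, 23.0, 15.2 and 14.7 TPM at 44 h, and 19.4, 16.3 and 17.5 TPM at 48 h. No recovery sample reached the lowest control, and the gene was called lower at each time, with an average log2 fold change of -2.51 ± 0.24 (SE, limma adjusted p = 6.8e-17). FAD2 had already been called lower at 32 h of waterlogging, at -3.97 (limma adjusted p = 4.4e-14). Its average recovery effect minus that effect was called, at 1.46. FAD7 (LOC105167042), a plastid omega-3 desaturase, averaged 766 ± 171 TPM in recovery and 1063 ± 107 TPM in control (SD, n = 9 each). Its log2 fold change of -0.50 ± 0.11 (SE, limma adjusted p = 0.00011) was under the fold limit. SeMGD2 (LOC105166432), of galactolipid synthesis, was called lower at 40 h alone, with a log2 fold change of -1.51. DGAT1 (LOC105173637), of the last step of triacylglycerol synthesis, differed by 0.11 ± 0.10 (SE) on the same scale.

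The other named genes had mixed values. PPO (LOC105176878), a polyphenol oxidase, which oxidises phenols, averaged 1.60 ± 1.08 TPM in recovery and 4.31 ± 1.49 TPM in control (SD, n = 9 each), a log2 fold change of -1.11 ± 0.24 (SE, limma adjusted p = 5.4e-05). It was called at 40 h, at -1.99, and not at 44 h (-0.60) or 48 h (-0.73). Without the second replicate its average was -0.87, and over 44 and 48 h only -0.67, both under the limit of 1. The gene named IPS (LOC105176482) averaged 2.33 ± 1.18 TPM in recovery and 5.52 ± 1.53 TPM in control, a log2 fold change of -1.02 ± 0.16 (SE, limma adjusted p = 6.7e-08). It stood so near the fold limit that its call was lost in 13 alternatives. CYP81Q1 (LOC105177765), which forms the lignan sesamin, had 10.5, 9.02 and 20.2 TPM at 44 h of recovery, against 79.0, 381 and 69.8 TPM in control. It was called lower at that time, at -3.26 (limma adjusted p = 9.1e-07), and its log2 fold changes of 1.07 at 40 h and 0.05 at 48 h were not called. GAPDH (LOC105156676), of glycolysis, differed by 0.19 ± 0.22 (SE) on average. Beta-actin (LOC105159390) averaged 391 ± 70.7 TPM in recovery and 311 ± 24.4 TPM in control (SD, n = 9 each), a log2 fold change of 0.31 (limma adjusted p = 0.0019). SiUGT23 (LOC105160417), also named UGT88D6, a flavonoid glucuronosyltransferase, differed by 0.25, and AP3 (LOC105159317), a floral MADS-box gene, by -0.24 at 3.19 to 5.98 TPM in recovery and 3.83 to 7.94 TPM in control.

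**Figure D4:**
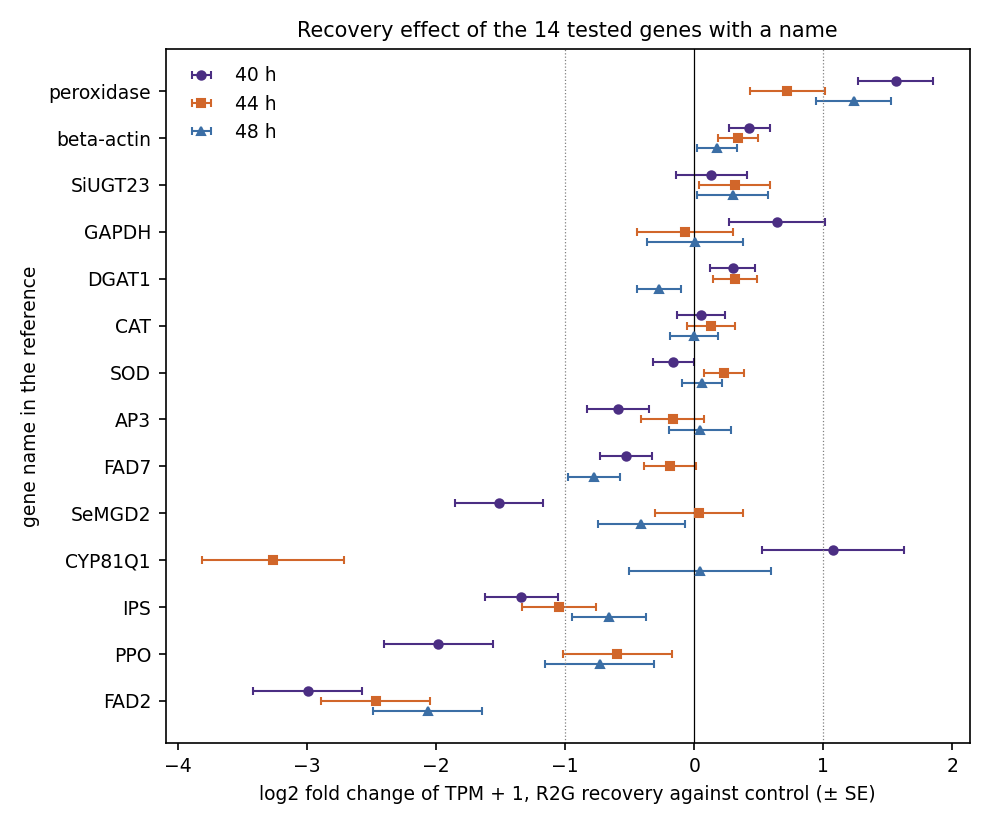
Log2 fold change of TPM + 1, R2G recovery against control, for the 14 tested genes that the annotation names, at 40, 44 and 48 h. Bars are standard errors from limma and dotted lines mark the fold limit of 1. FAD2 is below -2 at all 3 times, peroxidase is above 0 at all 3, and CYP81Q1 is at -3.26 at 44 h alone.

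How far recovery had undone the state under water was asked by a comparison with 32 h, the last time at which waterlogging has a control. At 32 h of waterlogging 4143 genes (22.8%) were called, 637 higher (3.5%) and 3506 lower (19.3%). Of the 3506 lower genes, 1791 were also called lower at 40 h of recovery, 1040 at 44 h and 756 at 48 h, or 51.1%, 29.7% and 21.6%. Called higher instead were 23, 69 and 14. Their median log2 fold change was -1.49 at 32 h and -1.04, -0.51 and -0.39 at 40, 44 and 48 h. Of the 637 higher genes, 216 were called higher at 40 h, 76 at 44 h and 116 at 48 h, or 33.9%, 11.9% and 18.2%. Their medians were 1.44 at 32 h and 0.76, 0.26 and 0.45 later. Both lists were chosen by their size at 32 h, so part of the smaller medians later can come from that choice. How large that part is was not tested. Read the other way, 74.3% of the genes lower at 48 h, and 39.1% of those higher at 48 h, had been called in the same direction at 32 h.

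The difference between the 2 effects, recovery at 40 to 48 h minus waterlogging at 32 h, was called for 3032 genes (16.7%), of which 2388 (13.1%) were higher and 644 (3.54%) lower. Of the 2388, 1572 had been called lower at 32 h. The 32 h effect is subtracted in this difference, so a low value at 32 h by itself moves a gene to the higher side. The split by the 32 h call is therefore a description. Without the first replicate of every group the difference was called for 1972 genes. Of the 644, 279 had been called higher at 32 h and 45 lower, and 171 were called lower in recovery itself. The median difference over all genes was 0.26 and became 0.02 after median-ratio scaling, which left 1438 higher and 1159 lower calls, and the share of higher calls was then 55.4%, against 78.8% as deposited. For 32 h of waterlogging the same scaling took the median to -0.06, against -0.30 as deposited, and gave 1093 higher and 2649 lower calls, a share of 29.2% higher, against 15.4% as deposited.

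**Figure D5:**
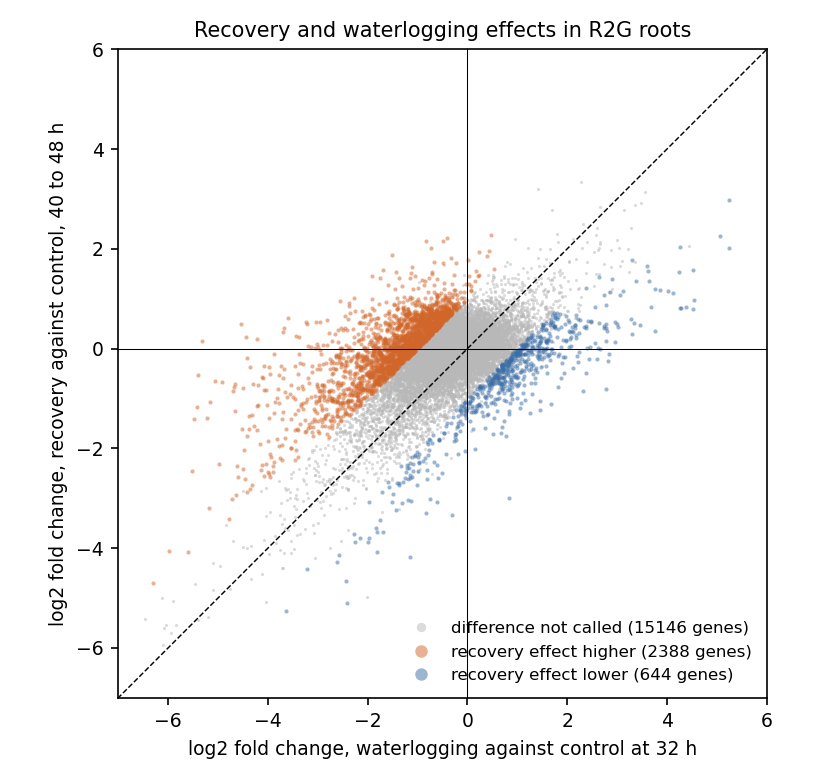
Recovery effect against waterlogging effect in R2G roots, 1 point per gene for 18178 genes. The y axis is the average log2 fold change of recovery against control at 40 to 48 h and the x axis that of waterlogging against control at 32 h; orange marks 2388 genes whose recovery effect was called higher, blue 644 genes called lower, and the dashed line marks equal effects. Most orange points lie left of 0, among genes that were lower under water, and the x value is itself part of the difference that sets the colour.

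LOC105173593 (linkage group 11, 8417652 to 8418819) had the largest upward difference, 5.48 ± 0.73 (SE, limma adjusted p = 2e-09). Its recovery levels were 44.0, 80.8 and 136 TPM at 40 h, 17.7, 28.8 and 86.4 TPM at 44 h and 38.8, 50.5 and 31.9 TPM at 48 h, against 25.7 to 76.6 TPM in the 9 controls. At 32 h it had 2.25, 0.961 and 2.08 TPM under waterlogging and 151, 36.4 and 221 TPM in control. At 38 h, 2 h after drainage, LOC105173593 read 6.44, 3.58 and 15.4 TPM. LOC105170038 (linkage group 1, 15190646 to 15191736) and LOC105167860 (linkage group 8, 7832731 to 7834068) followed the same course. LOC105170038 had 1.76, 0.855 and 0.695 TPM at 32 h of waterlogging and ran from 11.4 to 84.0 TPM in recovery, against 12.8 to 38.6 TPM in control. LOC105167860 had 1.79, 0.801 and 0.764 TPM at 32 h of waterlogging and ran from 9.80 to 62.3 TPM in recovery, against 20.7 to 76.7 TPM in control. Their differences were 5.02 ± 0.64 and 4.86 ± 0.72 (SE). In all 3 genes recovery and control overlapped, and none was called in recovery.

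In the other direction, LOC105173162 (linkage group 11, 1075993 to 1079266) was low after drainage and not at 32 h of waterlogging. It had 0.904, 1.01 and 0.360 TPM at 40 h of recovery, 0.863, 0.983 and 0.214 TPM at 44 h and 0.502, 0.118 and 1.70 TPM at 48 h, and its 9 controls ran from 9.45 to 18.1 TPM without overlap. At 32 h it had 21.3, 11.5 and 3.20 TPM under waterlogging and 3.67, 7.28 and 4.44 TPM in control, and at 38 h, already drained, 3.93, 3.07 and 3.25 TPM. The gene was called lower at each recovery time, and the difference was -3.82 ± 0.44 (SE, limma adjusted p = 1.5e-11). LOC105169208 (linkage group 8, 18023166 to 18024228) and LOC105157577 (linkage group 3, 7572408 to 7573880) had been high under water and were no longer called in recovery. LOC105169208 ran from 1.21 to 8.50 TPM in recovery and 0.476 to 3.63 TPM in control, and at 32 h it had 140, 55.4 and 22.1 TPM under waterlogging and 1.59, 0.671 and 2.45 TPM in control. Its difference of -3.74 ± 0.81 (SE, limma adjusted p = 9.8e-05) was -0.41 when the waterlogging effect was averaged over the 7 times with a control. LOC105157577 ran from 3.50 to 26.7 TPM in recovery and 6.43 to 32.1 TPM in control, and at 32 h it had 336, 37.5 and 50.8 TPM under waterlogging and 15.8, 7.52 and 13.8 TPM in control, a difference of -3.59 ± 0.86 (SE, limma adjusted p = 0.00042).

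The position of the called genes on the map was compared next. Adjacent here means next in the order of tested genes on a linkage group, so untested genes may lie between. Of 283 higher genes with a position, 32 (11.3%) had an adjacent gene that was also called higher, against 3.16% of all 17517 placed genes. Of 1532 lower genes, 364 (23.8%) had an adjacent lower gene, against 16.5% of all. Neighbours may be copies that share reads, and whether the runs hold such copies was not tested. The longest run of lower genes held 9 consecutive tested genes on linkage group 5, from 18251100 to 18377933, and was picked after the values were seen. Its genes ran from LOC105162912 to LOC105162921 and had log2 fold changes of -2.59 for LOC105162919 to -4.65 for LOC105162915. LOC105162915 had 2.74, 10.2 and 6.70 TPM at 40 h of recovery, 25.2, 16.4 and 14.8 TPM at 44 h and 7.63, 5.79 and 3.88 TPM at 48 h. Its control levels were 494, 298 and 71.6 TPM at 40 h, 1406, 575 and 755 TPM at 44 h, and 113, 75.1 and 46.4 TPM at 48 h. The control itself had been low earlier, with 5.30, 6.24 and 4.53 TPM at 0 h and 4.77, 9.01 and 14.2 TPM at 32 h. LOC105162916, beside it, had 13.9 to 84.7 TPM in recovery and 163 to 1742 TPM in control at 40 to 48 h. Its control had 6.52, 3.30 and 2.91 TPM at 0 h. The fall of LOC105162915 is relative to controls that were higher at 40 to 48 h than at 0 and 32 h. At 32 h of waterlogging LOC105162916 had already been called lower than control, at -3.87, and LOC105162915 at -2.43. LOC105162965, LOC105162918 and LOC105162919 were called lower then too, at -1.81, -1.81 and -1.51. LOC105162912, LOC105162966, LOC105162920 and LOC105162921 were not called at 32 h. LOC105162966 overlaps LOC105162915 on the map, and since the strand setting of the read counting is not given in the sources used here, their reads may not be fully separable.

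Among higher genes the longest run held 4 genes on linkage group 10, from 2580433 to 2589960, also picked after the values were seen. LOC105171788 averaged 374 ± 89.2 TPM in recovery and 165 ± 94.9 TPM in control (SD, n = 9 each), with a log2 fold change of 1.33. LOC105171725 averaged 134 ± 32.7 TPM in recovery and 60.3 ± 39.0 TPM in control, with 1.34. LOC105171789 and LOC105171724 had log2 fold changes of 1.20 and 1.04. In all 4 the effect was largest at 40 h, at 2.34 for LOC105171788 and 2.29 for LOC105171725, and with 44 and 48 h alone none of the 4 was called, at 0.82, 0.74, 0.86 and 0.69 in the order LOC105171788, LOC105171724, LOC105171725 and LOC105171789.

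Most genes called in R2G recovery were called in the same direction in EG. In EG, 2631 genes (14.5%) were called on the average of the 3 times, 606 higher (3.33%) and 2025 lower (11.1%). Of the 294 genes higher in R2G, 251 were higher in EG too, which is 85.4% of the R2G list and 41.4% of the EG list. Of the 1593 lower in R2G, 1436 were lower in EG, 90.1% and 70.9% of the lists, and 1 was called in the opposite direction. The test of the difference itself, R2G recovery effect minus EG recovery effect, called 47 genes (0.259%), 31 higher (0.171%) and 16 lower (0.088%), while 1806 genes had an unadjusted p under 0.05. The EG plants labelled as wilting at 48 h are described as dead in the study's methods. With them in place of the surviving ones the count was 433, 218 higher and 215 lower. It was 19 without replicate 1, 10 without replicate 2 and 56 without replicate 3 of every group. Among single R2G libraries it was 75, 28 and 22 without replicate 1, 2 or 3 of recovery at 40 h, 24 and 72 without replicate 1 or 3 of recovery at 48 h, and 31 without replicate 2 of control at 44 h.

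Of the 3 genes with the largest negative differences, 2 were under 2 TPM in every R2G sample of the comparison and rose in EG. LOC105178884, on no linkage group, was near 1 TPM in R2G, with 0.537 to 1.33 TPM in recovery and 0.379 to 1.27 TPM in control. In EG it had 64.8, 47.1 and 161 TPM at 40 h of recovery, 59.9, 74.2 and 90.1 TPM at 44 h and 82.5, 144 and 93.5 TPM at 48 h, against at most 25.0 TPM in the EG controls. The recovery effect was 0.07 in R2G and 2.50 in EG, a difference of -2.43. LOC105172106 (linkage group 10, 5519048 to 5520058) was at 0 to 1.83 TPM in R2G recovery and 0 to 1.28 TPM in R2G control, while in EG recovery it had 3.26, 12.1 and 4.57 TPM at 40 h, 8.77, 52.7 and 21.8 TPM at 44 h and 21.8, 19.4 and 9.26 TPM at 48 h. Its effects were 0.20 in R2G and 2.97 in EG, a difference of -2.77. LOC105178884 and LOC105172106 averaged under 1 TPM in the 18 R2G samples and would not pass the filter on these alone, so their differences are given as a description. LOC105164435 (linkage group 1, 12284523 to 12285768) was lower in R2G recovery, at 3.61 to 13.1 TPM against 9.43 to 24.2 TPM in R2G control. In EG it had 37.0, 71.9 and 11.5 TPM at 40 h of recovery against 3.31, 1.76 and 21.2 TPM in control, and the effects of -1.17 in R2G and 1.47 in EG differed by -2.64 ± 0.57 (SE, limma adjusted p = 0.0076). That call was lost without the first or the second replicate.

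In the other direction, the 3 genes with the largest differences were called lower in both genotypes. LOC105155254, on no linkage group, had 0 to 3.51 TPM in R2G recovery and 1.60 to 120.4 TPM in R2G control. In EG it had 0.765 to 6.85 TPM in recovery and 89.3 to 910 TPM in control, and the effects of -3.01 in R2G and -6.21 in EG differed by 3.20 ± 0.42 (SE, limma adjusted p = 2.7e-08). LOC105162012 (linkage group 5, 4488768 to 4490734) had 0 to 0.702 TPM in R2G recovery, and its R2G controls were 1.81, 0.442 and 0.606 TPM at 40 h, 121, 4.34 and 3.23 TPM at 44 h, and 2.76, 1.59 and 0.139 TPM at 48 h. Its EG controls were as uneven, at 497, 1.22 and 304 TPM at 44 h, and the difference was 2.83 ± 0.64 (SE, limma adjusted p = 0.012). LOC105162912, the first gene of the run on linkage group 5 (18251100 to 18252699), had effects of -3.30 in R2G and -5.64 in EG, a difference of 2.34 ± 0.48 (SE, limma adjusted p = 0.0031). It had 0.301 to 5.67 TPM in R2G recovery and 0.223 to 222 TPM in R2G control, and was not called in R2G at 48 h. In R2G recovery all 3 genes were at 5.67 TPM or less. How far their differences come from the levels in control was not tested. The called differences of LOC105162012 and LOC105162912 were lost without the third replicate, at 0.97 and 1.24, and also with a pseudocount of 0.1 and in a model of the compared samples alone. The call of LOC105162012 in R2G itself, at -1.64, was lost without the first replicate, at -0.92.

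The 4 most abundant genes of R2G recovery moved little on average. LOC105170794 averaged 5552 ± 1534 TPM in recovery and 5530.3 ± 933 TPM in control (SD, n = 9 each), and LOC105172989 averaged 4973 ± 822 TPM in recovery and 4374 ± 458 TPM in control. LOC105173756 averaged 4857 ± 678 TPM in recovery and 3542 ± 487 TPM in control, with a log2 fold change of 0.45 (limma adjusted p = 1.1e-05), under the fold limit. LOC105158618 differed by time. It had 11724, 6057 and 4123 TPM at 40 h of recovery, against 1710.0, 2103 and 2403 TPM in control, without overlap and with a called log2 fold change of 1.69. Its log2 fold changes of -0.50 at 44 h and 0.38 at 48 h were not called. At 38 h LOC105158618 had stood at 13442, 12304 and 10429 TPM, and at 36 h of waterlogging at 9635, 7064 and 9487 TPM.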

How the data were processed

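RNA was poly(A)-selected and sequenced as paired ends on an Illumina HiSeq. The authors trimmed reads with Trimmomatic 0.32, used STAR to map them to the sesame genome (v1.0), took featureCounts for uniquely mapped reads and deposited TPM for 20271 genes. TPM is a share of the library, so a change in a few abundant genes or in total RNA shifts all others. Deposited TPM summed to 999507 to 999739 in R2G recovery and 999344 to 999666 in R2G control at 40 to 48 h, and 1.61% of all values were 0. Read counts are not held in TPM, and the depth of single libraries was not used here. No 2 columns were identical.

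Linear models with a mean-dependent prior on the variance were fitted by limma 3.58.1 under R 4.3.3. The values were log2(TPM + 1), for the 18178 genes with a mean of at least 1 TPM over all 195 samples, in 1 model with the 65 conditions as groups. The p-values were Benjamini-Hochberg adjusted over all genes tested and two-sided. The added 1 makes fold changes of low genes look smaller than they are. Summaries and figures used Python 3.11.15 with numpy 2.4.6, pandas 2.3.3 and matplotlib 3.10.9.

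The samples described, the comparisons and the rules for naming genes were chosen with earlier results of these data known. Named were the 6 largest rises and falls among genes called on average and at each time, the 3 largest in each direction for each of the 3 difference tests (all with at least 10 TPM in the highest group mean), and the 4 most abundant genes. Genes with an annotated name and those of the longest runs of neighbours were added after their values were seen. Planned lists of gene families could not be formed, because the annotation used here, which matched all 20271 genes, holds neither product names nor proteins. Of its 17 descriptive names, 1 belonged to a gene under the filter and 2 to genes not analysed here. Coordinates are from that annotation, on the build the authors mapped to, counted from 1.

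Tested on simulated data with 200 genes changed by 2 on the log2 scale, the average recovered 199 with 0 false calls, the 48 h comparison 195 with 3, the change from 40 to 48 h 172 with 8, and R2G minus EG 198 with 6. With a change of 1.5 the same comparisons recovered 197 with 0, 183 with 0, 142 with 4 and 195 with 2. Only 200 of 18178 genes were changed each time. The simulated noise was normal, with the same spread for a gene in all groups, as the model assumes. How the comparisons perform with spreads that differ between groups was not tested. Nor was their performance with more changed genes, such as the 1887 called on average. The alternatives were a pseudocount of 0.1, 2 other filters, median-ratio scaling, only the samples compared in the model, a block for the replicate number, leaving out each replicate and each R2G library, and the wilting EG plants. An average of 44 and 48 h only, and a waterlogging effect averaged over 7 times, were chosen after seeing the data. Where 1 library left a group with fewer plants, its spread came from the whole model.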

Additional observations from a re-analysis of the deposited data

Results flagged for a closer look

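Each result here is a difference between effects that passed its own test, between times of recovery or between genotypes, and each is given as a value. The change of the R2G recovery effect from 40 to 48 h was called for 793 genes, and the R2G recovery effect minus the EG recovery effect for 47. Single genes with a called change from 40 to 48 h were LOC105177049 at 3.61, LOC105177883 at 3.40, LOC105168818 at 3.38, LOC105179681 at -3.33, LOC105161045 at -3.15 and LOC105171663 at -3.07 on the log2 scale. Genes with a called difference between R2G and EG were LOC105155254 at 3.20, LOC105162012 at 2.83, LOC105162912 at 2.34, LOC105172106 at -2.77, LOC105164435 at -2.64 and LOC105178884 at -2.43. Of these, LOC105172106 and LOC105178884 averaged under 1 TPM in the R2G samples compared.

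In the run of 9 lower genes on linkage group 5, the R2G recovery effect minus the EG recovery effect was also called for LOC105162966 at 2.07, LOC105162918 at 2.09, LOC105162920 at 1.49 and LOC105162921 at 1.73. Their limma adjusted p was 0.021, 0.016, 0.044 and 0.044 in that order. In R2G recovery they averaged 1.25, 2.66, 0.557 and 0.322 TPM. These differences were not recomputed in the alternatives. The change from 40 to 48 h was called for LOC105162920 at 2.45 and for LOC105162921 at 2.56. In R2G recovery LOC105162920 ran from 0.050 to 1.30 TPM and LOC105162921 from 0.060 to 0.832 TPM. Their R2G controls ran from 0.886 to 106 TPM and from 0.534 to 95.1 TPM. At 48 h neither was called lower, with log2 fold changes of -1.05 and -1.14. How far the changes come from the controls was not tested, and the changes were not recomputed in the alternatives.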

How the results depend on the processing

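The counts of the 8 comparisons were recomputed 172 times, and 147 stayed within 1.5 times the value reported. The average recovery count stayed so in every alternative, between 1513 with 44 and 48 h only and 2529 with a pseudocount of 0.1. For the change from 40 to 48 h, a pseudocount of 0.1 gave 441 calls, median-ratio scaling 477, a model of the compared samples alone 258, and leaving out a replicate or a library 6 to 1302. At 48 h the model of the compared samples gave 864, and leave-one-out 774 to 1771. Recovery minus waterlogging ran from 1972 to 3611 in leave-one-out. R2G minus EG had 21 calls with the compared samples alone, 433 with the wilting EG plants and 10 to 75 in leave-one-out. Causes were not tested.

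The replicate numbers did not pair recovery with control samples. Deviations of same-numbered samples correlated at -0.415 to 0.033 over 9 pairs, and 1 of 9 recovery samples was closest to its own number. With the replicate block the counts were 1887 on average, 3156, 2121 and 1319 at 40, 44 and 48 h, 830 for the change, 3041 against waterlogging, 48 against EG and 4149 at 32 h.

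Of 2180 recomputed values of named genes, 2091 kept direction and call, 60 lost the call, 12 gained it and 17 changed sign, none of them in a gene called on average. With a replicate or a library left out, LOC105170794 ran from -0.27 to 0.13, LOC105167860 from -0.95 to 0.053, LOC105173593 from -0.28 to 0.72, LOC105170038 from -0.0048 to 1.06 and SOD (LOC105166989) from -0.00074 to 0.089. With 44 and 48 h only, LOC105177049 became 0.25, LOC105173593 became -0.33, LOC105158618 became -0.058 and GAPDH (LOC105156676) became -0.031. How far counting error sets the spread of low genes was not tested.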

Other observations

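The drained R2G roots were also sampled at 38, 42 and 46 h, between the times that have a control. On gene profiles of log2(TPM + 1), centred on the mean of all 195 samples, the 42 h profile was most like 46 h, at a correlation of 0.79 over 18178 genes, and the 44 h profile most like 48 h, at 0.78. Neighbouring times correlated at 0.64 for 38 and 40 h, 0.56 for 40 and 42 h, 0.62 for 42 and 44 h, 0.67 for 44 and 46 h and 0.57 for 46 and 48 h. The pair of 38 and 48 h correlated at 0.09. These correlations run across genes, which are not independent replicates, and the profiles share the mean they were centred on.

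Among runs of neighbouring genes called lower in R2G recovery, 29 held 3 or more genes, and 3 runs of higher genes did. On linkage group 6, 3 genes from 9020073 to 9034872, among them LOC105164245 and LOC105164159, had a median log2 fold change of -5.70, and 4 genes from 9273759 to 9292871, among them LOC105164264, had a median of -3.53. A further run of 4 genes on the same linkage group, from 16277566 to 16313257, had a median of -3.49. The runs were picked after their values were seen.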
